A study of Rattus norvegicus with 6 samples.

Results

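A set of 8 genes typical of the adrenal cortex was followed across ovarian RNA from neonatal rats: Cyp11b1, Cyp11b2, Cyp11b3, Cyp21a1, Akr1b7, Akr1b8, Mc2r and Mrap. They make 8 of the 15154 named genes on the array and were taken as every probe whose RefSeq accession belongs to one of them, which gave 9 probes, with a pair for Cyp11b3. The genes were picked because their signals on these same arrays were already known to be unequal, so their levels and differences are given as a description, with no test. Female Wistar pups had received 0.05 mg/kg LPS (lipopolysaccharide of Salmonella Enteritidis, a component of the bacterial outer membrane) or saline intraperitoneally, first on postnatal day (PND) 3 and again on PND 5, and their ovaries were taken on PND 7. Amplified RNA of each treatment was hybridized to 3 single-colour Agilent arrays. The methods call the arrays biological replicates and name more animals than arrays for each treatment, from few litters, while which animals stand behind which array was not given in the sources used here. No genetic modification is stated for either group. Whole litters were allocated to LPS or to saline, so the treatments differed in litter as well as in injection. Effects of litter and of injection cannot be told apart here.

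The adrenal cortex turns cholesterol into corticosteroids under the control of adrenocorticotropic hormone (ACTH) from the pituitary. Mitochondrial side chain cleavage of cholesterol and the 3-beta-hydroxysteroid dehydrogenase step are shared with the ovary and testis, whereas 21-hydroxylation and 11-beta-hydroxylation are hallmarks of the cortex. In rodents the outer zona glomerulosa makes aldosterone, the zona fasciculata beneath it makes corticosterone, and the chromaffin cells of the medulla, at the centre of the gland, make catecholamines.

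Promoter sequence is shown for Cyp21a1 and Akr1b7 because NR5A1 (steroidogenic factor 1, encoded by Nr5a1) is the nuclear receptor known to act on steroidogenic genes, and its half-site letters stood in both promoters. Each line is RefSeq sequence of build GRCr8, plus strand, read 5′ to 3′ and ending at the base before the annotated start of the gene. Capitals mark the letters of a searched motif. For Cyp21a1 the window is chr20:4028141-4028390, and for Akr1b7 it is chr4:64043720-64043969.
Cyp21a1: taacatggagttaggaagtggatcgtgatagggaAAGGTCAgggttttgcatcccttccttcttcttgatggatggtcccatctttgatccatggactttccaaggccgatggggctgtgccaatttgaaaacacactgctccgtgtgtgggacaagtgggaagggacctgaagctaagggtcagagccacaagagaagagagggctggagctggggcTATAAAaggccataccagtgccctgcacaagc
Akr1b7: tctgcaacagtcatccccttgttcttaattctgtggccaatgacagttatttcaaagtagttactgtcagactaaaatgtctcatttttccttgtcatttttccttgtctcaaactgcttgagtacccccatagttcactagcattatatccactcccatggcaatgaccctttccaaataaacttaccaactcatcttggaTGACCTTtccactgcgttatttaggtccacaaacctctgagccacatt
The motifs searched, on both strands, were the NR5A1 half-site AAGGTCA, the cAMP response element TGACGTCA and the TATA box TATAAA, and no 2 matches overlapped. In Cyp21a1, AAGGTCA lay 216 to 210 bases before the start and TATAAA 32 to 27 bases before it. In Akr1b7, AAGGTCA was read on the opposite strand (printed as TGACCTT) 48 to 42 bases before the start. The windows of Akr1b8 and Mc2r held none of the 3 motifs, and promoters of Cyp11b1, Cyp11b2, Cyp11b3 and Mrap were not analysed here. Among 33469 promoter windows of the same 250 bases, 3.99% held AAGGTCA, 1.59% TGACGTCA and 12.9% TATAAA. A match is a stretch of letters and was not measured as a binding site.

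Signals are given as the log2 of the background-subtracted intensity, with the 75th percentile of each array set to 0. The scanner software marked which spots lay well above background, and a probe was taken as well above background where most of its spots were. Each member probe had 2 spots per array, 0 of them flagged as outliers, and the spots of a probe differed by at most 0.12 (log2) on saline replicates 2 and 3 and by at most 0.50 wherever the probe was well above background. Signals of different probes cannot be set against each other, so only levels of the same probe on different arrays are compared. The arrays resembled each other across probes, with correlations from 0.954 to 0.995, and their number limits the precision of every value.

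Saline replicates 2 and 3 stood apart from the other 4 arrays for the cortex genes, and the differences between treatments are given below with and without them. On both of these arrays all 8 genes were well above background and at least 4-fold above the highest LPS array, as was found for 112 named genes in all, or 0.739% of 15154. Over all probes, 22 lay at least 4-fold above the highest LPS array on saline replicate 1, 312 on saline replicate 2 and 217 on saline replicate 3, with 193 shared by the last pair. The summed signal of the 8 genes was 2.95, 2.00 and 1.91 times the 75th percentile signal on LPS replicates 1, 2 and 3, whereas the 3 saline arrays gave 3.43, 189 and 243 times. Saline replicate 1 therefore lay close to the LPS arrays and far from its own group. Cyp11b3, Cyp21a1, Akr1b8 and Mrap were well above background on all 6 arrays, so signal at these 4 genes was not restricted to the pair that stood apart. In RNA of a whole tissue piece, fewer cells of a type and less RNA per cell cannot be told apart.

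**Figure D1:**
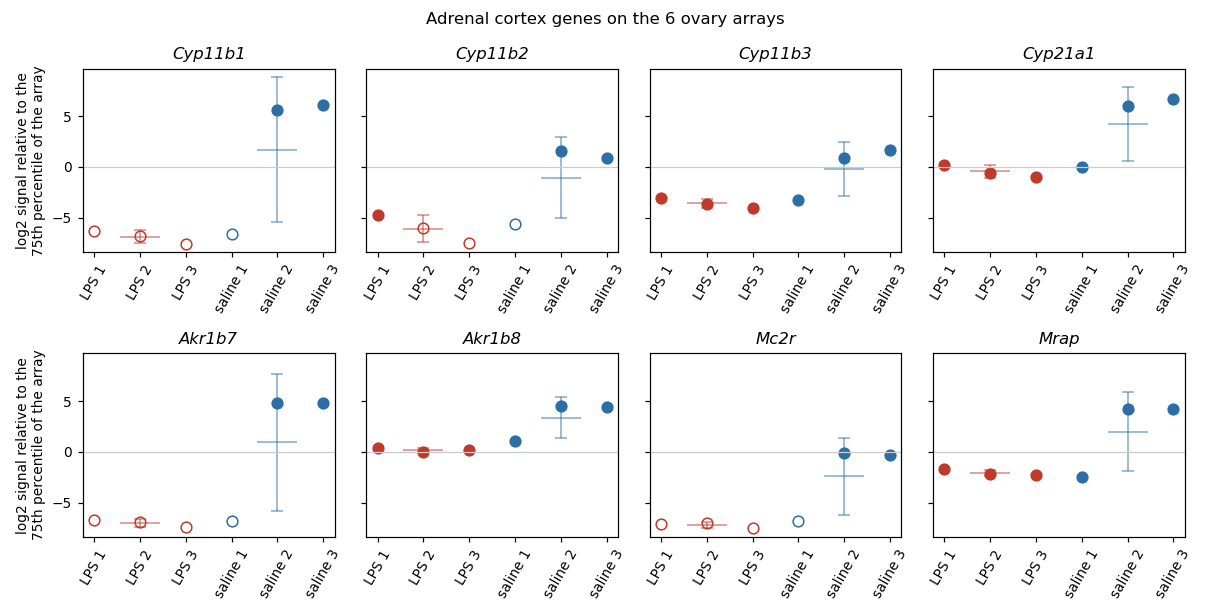
Log2 signal with the 75th percentile of the array at 0 (y axis) for the brightest probe of each of the 8 genes on the 6 arrays (x axis), with LPS in red and saline in blue, filled points well above background and open points not. The horizontal bars and whiskers give mean and SD of each group (n = 3), and in every panel saline 2 and 3 lie above all other arrays while saline 1 lies near the LPS arrays.

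The cytochromes of the CYP11B group carry out the last steps of corticosteroid synthesis. Cyp11b1, the 11-beta-hydroxylase that makes corticosterone, had log2 signals of -6.26, -6.78 and -7.53 with LPS (replicates 1, 2 and 3, as throughout) and of -6.55, 5.62 and 6.05 with saline. Neither the LPS arrays nor saline replicate 1 held it well above background, and the groups overlapped because of that saline array. Its mean was -6.86 ± 0.63 (SD, n = 3) with LPS and 1.70 ± 7.16 (SD, n = 3) with saline, a difference of -8.56 (standard error 3.22). As no LPS array measured it, the fold is only a bound, and the gene was at least 106-fold lower with LPS, with 2 of 3 saline arrays well above background. For such bounds each dim array entered at its own signal or at the lowest signal of any probe well above background on that array, whichever was higher, and the bright group at its mean over all 3 arrays. In every bound of a gene lower with LPS, that mean took in saline replicate 1 at a signal not well above background. These bounds therefore compare group means given that signal and do not hold against saline replicate 1 itself. Between arrays of the same treatment, saline replicates 2 and 3 were at least 1195-fold and at least 1615-fold above saline replicate 1.

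Cyp11b2, the aldosterone synthase of the zona glomerulosa, had log2 signals of -4.74, -6.01 and -7.43 with LPS and of -5.63, 1.60 and 0.90 with saline. LPS replicate 1 was the one array outside saline replicates 2 and 3 on which it was well above background. The difference of LPS from saline was -5.02 (standard error 1.89) with overlapping groups, and saline replicates 2 and 3 were at least 73.7-fold and at least 45.6-fold above saline replicate 1.

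Cyp11b3 encodes a further CYP11B enzyme of the rat adrenal. Its brighter probe gave -3.07, -3.64 and -3.99 with LPS and -3.24, 0.92 and 1.70 with saline, all well above background. Saline replicate 1 fell inside the LPS range, and replicates 2 and 3 were 17.8-fold and 30.7-fold above it. The second probe gave -4.39, -6.30 and -6.82 with LPS and -4.60, 2.17 and 2.31 with saline, and was well above background on saline replicates 2 and 3 alone. The differences of LPS from saline were -3.36 (standard error 1.21) and -5.80 (standard error 1.86) for the brighter and the second probe, and for the second the bound was at least 28.3-fold lower with LPS. Cyp11b1, Cyp11b3 and Cyp11b2 follow one another on chromosome 7, with the related Cyp11b2l1 and a Cyp11b1 pseudogene beside them. Probe sequences were not used here, so signal shared between these similar genes was not assessed and the split among them is uncertain.

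Cyp21a1 encodes the steroid 21-hydroxylase, through which both corticosterone and aldosterone are made, and its promoter is printed above. Its log2 signals were 0.24, -0.59 and -0.95 with LPS and 0.03, 5.96 and 6.67 with saline, well above background on all 6 arrays. Saline replicate 1 lay within the LPS range. The LPS mean of -0.43 ± 0.61 (SD, n = 3) and the saline mean of 4.22 ± 3.65 (SD, n = 3) differed by -4.65 (standard error 1.66), and saline replicates 2 and 3 were 61.0-fold and 99.9-fold above saline replicate 1.

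The aldo-keto reductases clear reactive aldehydes, among them the one released when the cholesterol side chain is cut. Akr1b7, an ACTH-responsive gene of the rodent adrenal cortex, gave -6.68, -6.88 and -7.39 with LPS and -6.81, 4.84 and 4.85 with saline. It was well above background on saline replicates 2 and 3 alone, with nearly equal signals there. The difference of LPS from saline was -7.94 (standard error 3.02), the bound was at least 63.2-fold lower with LPS, and saline replicates 2 and 3 were at least 700.0-fold and at least 703-fold above saline replicate 1.

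Akr1b8 gave 0.36, -0.02 and 0.15 with LPS and 1.05, 4.56 and 4.46 with saline, well above background throughout. It was the one measured member at which saline replicate 1 also lay above every LPS array, so its groups did not overlap. The difference of LPS from saline was -3.19 (standard error 0.91), with saline replicates 2 and 3 at 11.3-fold and 10.6-fold over saline replicate 1. On chromosome 4, Akr1b8 and Akr1b7 lie in a row with Akr1b1 and Akr1b10, and signal shared among them was not assessed either. Akr1b1, the widely expressed aldose reductase of that row, ran from 1.99 to 2.93 with LPS and from 2.12 to 3.00 with saline (difference -0.01, standard error 0.35), and Akr1b10 was well above background on no array.

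The last pair of genes serves the ACTH signal. Mc2r, the ACTH receptor, gave -7.05, -7.01 and -7.52 with LPS and -6.83, -0.12 and -0.31 with saline. Its groups did not overlap, but the LPS arrays and saline replicate 1 were not well above background, so the order among those 4 has no meaning. The difference of LPS from saline was -4.77 (standard error 1.72), at least 6.08-fold lower with LPS as a bound, and saline replicates 2 and 3 were at least 22.5-fold and at least 19.6-fold above saline replicate 1. Mrap, the accessory protein that carries the receptor to the cell surface, gave -1.73, -2.16 and -2.31 with LPS and -2.49, 4.26 and 4.18 with saline, well above background on all arrays. Here saline replicate 1 lay below every LPS array, while replicates 2 and 3 were 108-fold and 102-fold above it. The difference of LPS from saline was -4.04 (standard error 1.74).

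By a 2-fold difference at an unadjusted limma p under 0.05, 7 of the 8 genes were lower with LPS, Mrap being the exception, beside 1.17% of the 15154 named genes. With the methods' t-test in place of limma 0 of the 8 were, and nothing is read from either count, since the same contrast chose the genes. Groups did not overlap at 2 of the 8, Akr1b8 and Mc2r, beside 17.9% of 15153 named genes with every LPS array below every saline array and 5.31% with every LPS array above. The median difference of the 8 genes was -4.71, or -4.35 with the 3 genes that no LPS array measured set to their bound, compared with -0.03 over all named genes. No probe of 30367 passed at a limma adjusted p under 0.05 or in the methods' t-test after adjustment, whereas 5018 had an unadjusted limma p under 0.05. With saline replicate 1 left out of the limma fit, 290 probes passed after adjustment.

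Leaving out both saline replicates 2 and 3, so that 1 saline array was set against 3 LPS arrays, took the differences to -0.30 for Cyp11b1, -0.43 for Cyp11b2, -0.33 for Cyp11b3, -0.46 for Cyp21a1, -0.17 for Akr1b7, -0.89 for Akr1b8 and -0.37 for Mc2r. For Mrap the difference became 0.43, with the sign turned. The median became -0.35. In that comparison Cyp11b1, Cyp11b2, Akr1b7 and Mc2r were not well above background on saline replicate 1, so their small differences carry no order. The LPS arrays were not alike among themselves either, and LPS replicate 1 was the highest of the LPS arrays at all 4 genes that were well above background on every array.

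The 8 genes ran closely together over the 6 arrays. The correlation of each gene with the mean of the other 7 was lowest for Cyp11b2 (r = 0.984) and highest for Cyp11b1 (r = 0.999), as a description over 6 arrays whose shape is set by saline replicates 2 and 3. Among 724 other named genes with a span of at least 2 (log2) and 2 or more arrays well above background, 176 had a correlation of at least 0.9 with the mean profile of the 8 genes and 46 one of at least 0.99. The 10 most alike were Ubd (r = 0.999), Zfp385b, Slc6a5, Kcnk3 and Akr1c3 (r = 0.998 each), Hao2, Tbx3, Chgb and Mgarp (r = 0.997 each) and Vnn3 (r = 0.996). They comprised a potassium channel (Kcnk3), an aldo-keto reductase (Akr1c3), a chromogranin of chromaffin granules (Chgb), a glycine transporter (Slc6a5), a ubiquitin-like modifier (Ubd) and a T-box factor (Tbx3). The Tbx3 signals were -0.13, -0.23 and -0.22 with LPS and -0.03, 2.00 and 1.91 with saline. Ubd, Slc6a5, Akr1c3, Hao2, Chgb and Vnn3 were well above background on saline replicates 2 and 3 alone, Slc6a5 at 2.46 and 2.32. These genes met the requirement of 2 arrays only through that pair, and their signals on the other arrays have no order. Their high correlations therefore followed largely from the way they were chosen.

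**Figure D2:**
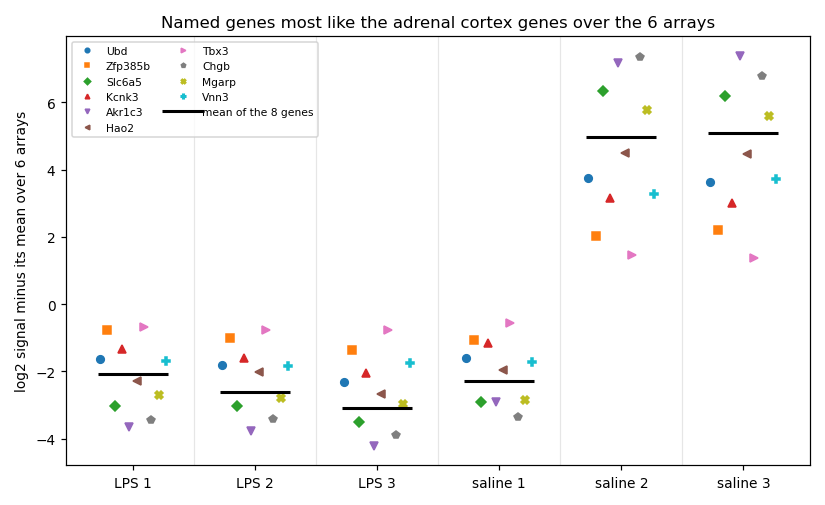
Log2 signal of each of the 10 most alike genes minus its own mean over the 6 arrays (y axis) on each array (x axis), with black bars for the mean of the 8 adrenal cortex genes. All 10 lie below their mean on the 3 LPS arrays and saline 1 and above it on saline 2 and 3.

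The rest of the corticosteroid pathway was read from 4 lists: enzymes and carriers shared by steroidogenic tissues, cortex transcription factors with cholesterol supply, ACTH receptor signalling, and zonation. Of 78 genes listed, 73 had a probe, and 6 of these were lower with LPS by the 2-fold and unadjusted criterion, a share to be read beside the 1.17% over all named genes, while 0 were higher beside 0.594%. These were Fdxr, Mgarp, Nr4a1, Vsnl1, Kcnk3 and Shh, and 0 passed after limma adjustment over all probes, with 10 at an unadjusted p under 0.05. The median difference over the 73 was -0.31, with or without 2 dim genes at their bound, compared with -0.03 over all named genes. Of the 73 differences 55 were negative, and the share of negative differences over all named genes was not counted. With the replicate number as a block the count of lower genes was 12. Leaving out single arrays gave 26 (saline replicate 1), 1 (saline replicate 2), 0 (saline replicate 3), 3 (LPS replicate 2) and 2 (LPS replicate 3).

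Among the 18 shared steroidogenic genes with a probe, 1 was lower and 0 were higher, beside 1.17% and 0.594% of all named genes. Their median difference was -0.98. Cyp11a1, the side chain cleavage enzyme that opens steroid synthesis, gave -2.94, -1.01 and -1.54 with LPS and -2.63, 6.17 and 6.58 with saline (difference -5.20, standard error 2.37, limma adjusted p = 0.336). Saline replicates 2 and 3 stood high as at the cortex genes, but LPS replicate 1 and saline replicate 1 were now lower than LPS replicates 2 and 3. Star, which moves cholesterol into the mitochondrion, was likewise high on saline replicates 2 and 3 and lowest on LPS replicate 1 and saline replicate 1, with -2.84, -1.14 and -1.50 against -3.18, 2.69 and 2.63 (difference -2.54, standard error 1.57, limma adjusted p = 0.530). Fdx1 (difference -2.77, standard error 1.20) and Fdxr (difference -1.79, standard error 0.58, limma adjusted p = 0.271) supply electrons to the mitochondrial cytochromes, and Fdxr, with 2.40, 2.40 and 2.35 against 2.74, 4.98 and 4.81, was the one called lower. Cyp17a1, the 17-alpha-hydroxylase of theca cells that the rat adrenal cortex largely lacks, gave 0.05, 1.87 and 1.42 with LPS and -0.43, 0.25 and 0.73 with saline (difference 0.94, standard error 0.52, limma adjusted p = 0.457). Here LPS replicates 2 and 3 had the highest signals, and saline replicates 2 and 3 lay above saline replicate 1 and LPS replicate 1 but below that pair.

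Of 14 cortex factors and cholesterol supply genes, 1 was lower, beside 1.17% of all named genes, with a median of -0.52. Mgarp, a mitochondrial protein of steroidogenic cells, gave -3.82, -3.90 and -4.09 with LPS and -3.96, 4.66 and 4.48 with saline (difference -5.66, standard error 2.21, limma adjusted p = 0.286). Nr5a1, whose half-site is printed in capitals above, gave -3.94, -1.78 and -2.48 with LPS and -3.73, 0.15 and 0.30 with saline (difference -1.64, standard error 1.15, limma adjusted p = 0.609). Nr0b1, which encodes the NR5A1 partner DAX1, gave -2.41, -2.70 and -3.09 against -3.47, 1.27 and 0.75 (difference -2.25, standard error 1.18, limma adjusted p = 0.420). On saline replicate 1 Nr0b1 was not well above background. Scarb1, the lipoprotein receptor that brings in cholesterol ester, differed by -1.82 (standard error 1.07). Gata4, Wt1 and Inha, which the ovary itself expresses strongly, differed by 0.37, 0.40 and -0.05.

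Of 24 ACTH signalling genes with a probe, 1 was lower, beside 1.17% of all named genes, with a median of -0.22. It was Nr4a1, an orphan receptor induced by ACTH, at -1.61, -1.36 and -2.16 with LPS and -1.08, 1.95 and 1.30 with saline (difference -2.44, standard error 0.75, limma adjusted p = 0.271). Of its relatives, Nr4a2 differed by -0.72 (standard error 0.26), and Nr4a3 was well above background on saline replicates 2 and 3 alone (-0.13 and -0.73), at least 6.20-fold lower with LPS as a bound. Components that many cells share, such as Gnas, Prkaca and Prkar1a, differed by -0.27, -0.36 and -0.31. Other genes of the list went the other way, among them Adcy2 (0.33), Adcy3 (0.50) and Adcy7 (0.49). Of the 24 differences 14 were negative. Mrap2, the second accessory protein of the family, differed by 0.43 (standard error 0.46), with signals from -1.99 to -0.54 on the LPS arrays and from -2.13 to -1.15 on the saline arrays, unlike Mrap. Among 5 other melanocortin receptors and ligands 0 were lower and 0 were higher, with a median of 0.17, and Pomc, the ACTH precursor, differed by 0.17 (standard error 0.38). Mc5r, the neighbour of Mc2r on chromosome 18, was well above background on LPS replicate 1 alone.

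Of 17 zonation genes with a probe, 3 were lower, beside 1.17% of all named genes, with a median of -0.46. Kcnk3, a potassium channel of glomerulosa cells, gave -0.28, -0.55 and -1.0 with LPS and -0.10, 4.20 and 4.04 with saline (difference -3.32, standard error 1.11, limma adjusted p = 0.271). Vsnl1, a calcium sensor of the glomerulosa, gave -4.48, -5.74 and -5.56 against -4.98, 1.20 and -1.10 (difference -3.63, standard error 1.44). It was not well above background on LPS replicates 2 and 3 or on saline replicate 1. Shh, the hedgehog ligand of the outer cortex, gave -3.76, -4.57 and -4.99 against -4.02, -1.93 and -3.02 (difference -1.45, standard error 0.56). On LPS replicate 2 Shh was not well above background. Of 15 other aldo-keto reductases and genes of corticosteroid metabolism, 1 was lower, beside the same 1.17%, with a median of -0.13. It was Akr1c3, not well above background on the LPS arrays or saline replicate 1 and at 3.76 and 3.99 on saline replicates 2 and 3 (difference -7.76, standard error 2.64, at least 45.4-fold lower with LPS as a bound). Hsd11b1, which regenerates active glucocorticoid, differed by 0.76 (standard error 0.18, limma adjusted p = 0.271), short of 2-fold, and Hsd11b2, which inactivates it, by -0.62 (standard error 0.37).

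**Figure D3:**
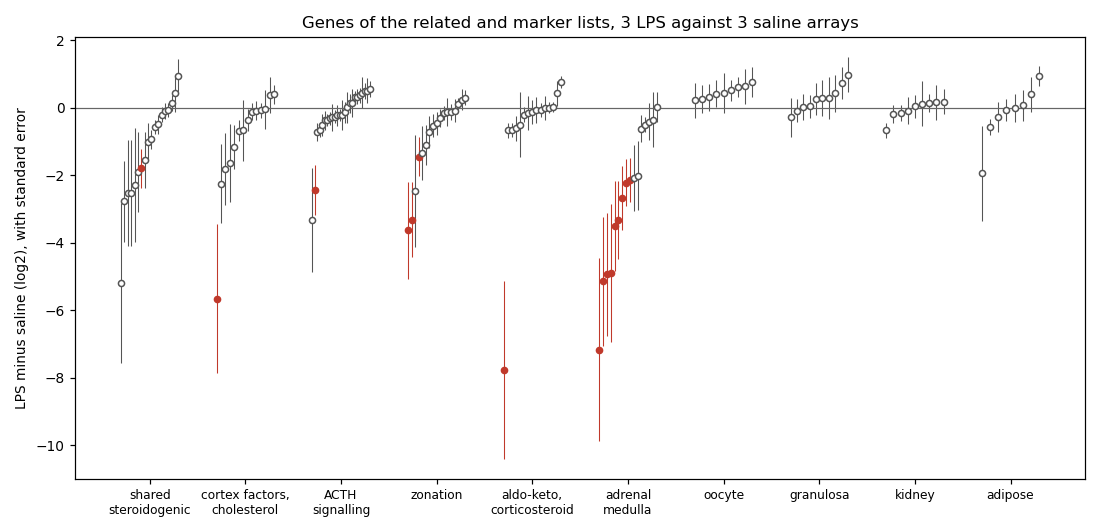
Difference of LPS from saline (log2, y axis) for each gene with a probe in 10 lists (x axis), with whiskers for the standard error from limma over 3 and 3 arrays and filled red points for genes past 2-fold at an unadjusted p under 0.05. The red points lie in the steroidogenic, cortex, ACTH, zonation, aldo-keto and adrenal medulla lists and none in the oocyte, granulosa, kidney or adipose lists.

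The 2 arrays also differed from the rest in genes of the adrenal medulla, the other part of the gland. Of 16 medulla markers with a probe, 9 were lower with LPS and 0 were higher by the same criterion, beside 1.17% and 0.594% of all named genes, with a median difference of -2.18 (-2.12 with 5 dim genes at their bound), and 0 passed after limma adjustment, with 9 at an unadjusted p under 0.05. Chgb, a granin, was not well above background on the LPS arrays or saline replicate 1 and stood at 3.90 and 3.34 on saline replicates 2 and 3, at least 35.9-fold lower with LPS as a bound. Dbh, which makes noradrenaline, differed by -5.15 (standard error 1.91), while Chga and Scg2, which no LPS array held well above background, were at least 7.79-fold and at least 13.1-fold lower with LPS as bounds. Leaving out single LPS arrays changed the 9 lower markers to 5 (LPS replicate 1), 2 (LPS replicate 2) and 2 (LPS replicate 3). Leaving out single saline arrays gave 13 (saline replicate 1), 3 (saline replicate 2) and 1 (saline replicate 3).

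The summed signal of the 16 medulla markers was 8.54, 6.25 and 5.83 times the 75th percentile signal with LPS and 8.87, 102 and 62.6 times with saline. Of the enzymes of catecholamine synthesis, Th, Ddc and Pnmt were well above background on all 6 arrays. Dbh was so on LPS replicate 3 and saline replicates 2 and 3 alone, and the granins Chga and Chgb on saline replicates 2 and 3 alone. The part of medulla RNA in the cortex gene differences was not tested. Checked against markers of the labelled tissue, 9 of 9 oocyte markers with a probe were well above background on every array, with summed signals from 17.1 to 47.4 times on the LPS arrays and from 20.2 to 34.1 times on the saline arrays. Of the oocyte markers 0 were lower and 0 higher with LPS (median 0.43), beside 1.17% and 0.594% of all named genes. The same held for 10 granulosa cell markers (median 0.27), 9 kidney markers (median 0.04) and 8 adipose markers (median -0.04). At those shares such short lists would hold few calls, so nothing is read from the 0 counts. Negative differences made up 0 of 9 for oocyte, 2 of 10 for granulosa cell, 4 of 9 for kidney and 5 of 8 for adipose markers. Kidney markers summed to 3.00 to 5.40 times with LPS and 2.23 to 6.65 times with saline, and adipose markers to at most 27.2 times with LPS and 28.6 times with saline. Their part in the result was not tested.

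Slide position touches the contrast, since LPS replicates 2 and 3 shared a row of the slide and the remaining 4 arrays filled the other. Fitting the row as a block leaves LPS replicate 1 to be set against the saline arrays beside it, and the median difference of the 8 genes was then -3.84. Saline replicate 1 shared its row with saline replicates 2 and 3, so the gap among the saline arrays lies within 1 row.

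The cortex genes were also set side by side on the 2 saline arrays that stood apart. For the 18025 probes well above background on both, the median of saline replicate 2 minus saline replicate 3 was -0.02 (log2), and the middle 95% of probes ran from -0.68 to 0.69. Cyp11b2 was higher on saline replicate 2, by 0.69. Cyp11b1 (-0.43), Cyp21a1 (-0.71) and the brighter Cyp11b3 probe (-0.79, and -0.15 for the second probe) were higher on saline replicate 3. Akr1b7 (-0.01), Akr1b8 (0.10), Mrap (0.08) and Mc2r (0.19) were close to equal. With 1 array on each side these differences cannot be tested, and apart from Cyp21a1, one Cyp11b3 probe and Cyp11b2 at its edge they lay inside the middle 95% of all probes.

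Leaving out the scaling between arrays adds one constant to every probe, which moved the median to 0.51, Cyp11b2 to 1.22, Cyp11b1 to 0.09, Cyp21a1 to -0.18 and Cyp11b3 to -0.26, so the sign of Cyp11b1 depends on the scaling. Under quantile normalization Cyp11b2 was at 0.63, Cyp11b1 at -0.33, Cyp21a1 at -0.41 and Cyp11b3 at -0.82.

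Other lists divided between the same 2 arrays as well. Of 15 zonation genes well above background on both, 13 were higher on saline replicate 2, with a median of 0.57, led by Vsnl1 (2.30) and Agtr1b, an angiotensin receptor (2.11), with Shh at 1.08. All 14 medulla markers measured on both were higher on saline replicate 2 (median 0.73), and so were all 6 adipose markers (median 1.22). All 9 oocyte markers were higher on saline replicate 3 (median -0.87), as were 7 of 8 granulosa cell markers (median -0.53). The 16 shared steroidogenic genes divided into 7 and 9 (median -0.04).

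**Figure D4:**
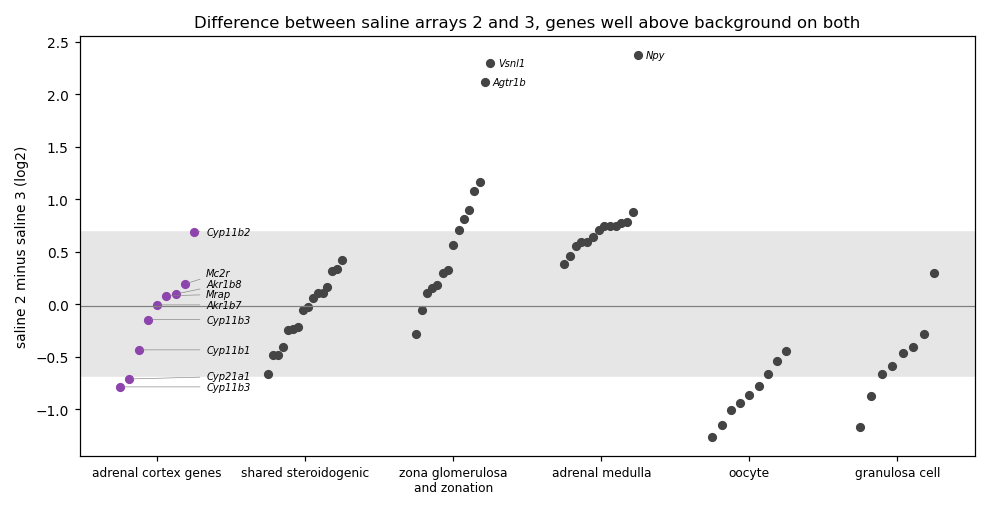
Saline 2 minus saline 3 (log2, y axis) for the probes of the 8 adrenal cortex genes and for genes of 5 lists (x axis), all well above background on both arrays, with the grey band for the middle 95% of all such probes and the line for their median. Cyp11b2 lies at the upper edge of the band and Cyp21a1 and a Cyp11b3 probe just under its lower edge, and the zonation and medulla genes lie mostly above 0 and the oocyte genes below it.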

How the data were processed

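Ovarian RNA from PND 7 rats was measured on 6 single-colour Agilent arrays, grouped as 3 LPS and 3 saline by the treatment and replicate number in the labels. The authors deposited the spot intensity values and flags of each array from Feature Extraction 10.5.1.1, with a whole-study table in which these intensities recur within 0.497%. The submitters' processing notes also name lumi, without a role. The processed signal of Feature Extraction, used here, is background-subtracted, with a surrogate in place of spots too dim to measure, so dim spots have no order. The normalization before testing was not given in the sources used here.

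From the deposited intensities, log2 values were computed, flagged spots were removed, spots of a probe were averaged and the 75th percentile of each array was subtracted. A probe counted as well above background on an array where most of its spots were marked so. The 30367 probes were fitted with lmFit and eBayes of limma 3.58.1 (R 4.3.3), LPS against saline, with Benjamini-Hochberg adjustment, and the procedure was tested on simulated data. RefSeq accessions were matched to symbols of the GRCr8 assembly, which named 17998 probes and 15154 genes and left 3408 RefSeq probes unmatched. The ordinary t-test per probe, an alternative, stands for the analysis of variance the study names for its data in general. The study names no test for the arrays. The brightest probe stood for a gene. The members, gene lists and tests were chosen with earlier results of these data known. Spots well above background made up 72.4% to 76.0% of spots on the LPS arrays and 66.3% to 70.4% on the saline arrays, and 0 were saturated.

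The genes named were every member, the called genes of each list (up to 4 by size, or the leading pair measured on all arrays where fewer were called), Nr5a1, Nr0b1, Star, Cyp11a1 and Cyp17a1, and the 10 genes most alike over the arrays. Other genes named were chosen after their values were seen. Deviations from the group means correlated between the LPS and saline arrays of one replicate number (0.298, 0.215 and 0.254 for numbers 1, 2 and 3). Of the unmatched pairs, LPS replicate 2 with saline replicate 3 gave 0.160 and LPS replicate 3 with saline replicate 2 gave 0.068. The remaining unmatched pairs were negative. The pairing rests on these values alone, and they set numbers 2 and 3 apart only weakly. The smallest p of an exact two-sided permutation of 3 arrays against 3 is 0.1. Alternatives covered background correction, scaling, the authors' table, dim and flagged spots, the test, the replicate and slide row blocks, the choice of probe and each array left out. The qRT-PCR and protein measurements were not analysed here.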

Additional observations from a re-analysis of the deposited data

How the results depend on the processing

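The difference of LPS from saline stayed negative at each of the 8 genes under every setting that gave it a value, except with both saline replicates 2 and 3 left out, where Mrap turned to 0.43. Cyp11b1, Akr1b7 and Mc2r have no value where probes had to be measured in both groups. Their median lay between -6.86 and -3.57 when single arrays were left out and was -0.35 without both saline arrays. The difference of Mc2r was -1.89 from the mean signal without background subtraction. When single arrays were left out, counts of lower and higher probes (327 and 186) ran from 81 to 757 and from 129 to 374. In the same settings, counts in the steroidogenic and cortex lists (6 lower, 0 higher) ran from 0 to 26 and from 0 to 2. The count of lower medulla markers (9) ran there from 1 to 13. Under normexp 2 probes were higher and 11 list genes lower. From the mean signal without background subtraction, 211 probes were lower, 0 higher and 15 list genes lower. Without scaling 1003 probes and 1 list gene were higher, and with the median over the probes of a gene 1 list gene was higher. Quantile normalization gave 173 lower and 118 higher probes and 4 lower medulla markers, and keeping only probes that 1 or more arrays of each group measured gave 179, 49 and 5. The ordinary t-test gave 48 lower and 100 higher probes, with 0 list genes and 0 medulla markers lower. The replicate block moved the lower list genes to 12 and changed no other count by over 1.5 times. The slide row as a block gave 66 lower and 1489 higher probes, 1 list gene in each direction and 0 medulla markers. Without both saline replicates 2 and 3, where the lone saline array is assumed to vary like the LPS arrays, 506 probes were lower and 494 higher, 0 list genes lower and 2 higher, and 0 medulla markers lower. The causes were not tested. Signal over background limits Cyp11b1, Akr1b7 and Mc2r, which no LPS array measured.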

Other observations

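Several genes outside the cortex pathway differed between the 2 saline arrays more than the cortex genes did. Ucp1, the uncoupling protein of brown fat, stood at 0.63 on saline replicate 2 and was not well above background on saline replicate 3 or on the other saline array, and among the LPS arrays it was well above background on replicate 1 alone (-4.43). Npy, a neuropeptide of sympathetic neurons and chromaffin cells, stood at 3.02 on saline replicate 2 and 0.65 on saline replicate 3, compared with -1.45 to -1.19 on the LPS arrays and -1.29 on saline replicate 1. Both were chosen after their values were seen, and 1 array on each side allows no test.

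Among the markers of other cell types, Mrc1, a mannose receptor of macrophages, was higher with LPS, at -3.76, -3.39 and -2.50, and reached the level called well above background on no saline array. It was at least 2.08-fold higher as a bound (limma adjusted p = 0.271). It was the 1 called higher of 10 macrophage markers, with 0 called lower, beside 0.594% and 1.17% of all named genes. Tcf21, a transcription factor of ovarian stroma, gave -1.66, -2.0 and -2.20 with LPS and -2.76, -3.38 and -2.96 with saline, without overlap (difference 1.08, standard error 0.24, limma adjusted p = 0.271). For both genes saline replicate 1 lay on the side of its own group. Slc4a1, an anion exchanger of red blood cells, was the 1 called lower of 6 red blood cell markers, beside 1.17% of all named genes (difference -1.17, standard error 0.45, limma adjusted p = 0.283). All 6 differences were negative (median -0.68), and at 4 of the 6 every LPS array lay below every saline array, beside 17.9% of named genes.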
